A study of Mus musculus with 19 samples.

Results

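The genes described here encode factors secreted by brown fat or that act on it: *Fgf21* with its receptor *Fgfr1* and co-receptor *Klb*, the neuregulin *Nrg4*, the bone morphogenetic proteins (BMPs) *Bmp8b*, *Bmp4* and *Bmp7*, the activin receptor *Acvr1c* and the growth factor *Gdf15*. They were taken by gene symbol and not by a rule on measured values, although earlier results of these data were known when they were chosen. All 9 were found among the 55740 genes of the 3 tables, and 7 of the 9 were among the 13756 genes of the table of inguinal white adipose tissue (iWAT). *Bmp8b* and *Gdf15* were not analysed in iWAT. RNA-Seq levels came from 19 mouse libraries and are given as FPKM, the fragments of a gene scaled to the length of its exons and to the mapped fragments of the library. A single library each came from liver, small intestine, brain, heart, tibialis anterior (TA) muscle and white and brown adipose tissue of wild type (WT) C57BL/6J mice on chow, kept at 23 to 24 °C outside cold assays. The other 12 libraries came from iWAT and brown adipose tissue (BAT) of male mice aged 5 months, also on chow. These mice had been kept at 8 °C for 1 week, with 3 libraries per tissue from WT mice and 3 from MCK-Musclin mice. MCK-Musclin mice carry the coding sequence of Musclin, a peptide secreted by muscle, placed behind the murine muscle creatine kinase promoter, a driver of expression in striated muscle. The transgenic line was backcrossed to C57BL/6J, and WT and MCK-Musclin mice shared the same cold exposure.

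FGF21 is an endocrine hormone that signals through FGF receptors only where beta-Klotho, the product of *Klb*, is present, and liver and thermogenic fat are known sources of it. NRG4 is a ligand of ErbB receptors released by adipocytes, and BMPs bind pairs of type I and type II receptors that phosphorylate SMAD proteins. BMP4 and BMP7 are known to commit precursors to the adipocyte lineage, BMP8B to raise the thermogenic response of brown fat, and GDF15 to reduce food intake through GFRAL in the hindbrain.

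The sequences that bear on how these levels are read are those of a promoter known to answer to cell stress, of the promoter of the gene with the largest difference between the genotypes, and of a stretch that a pair of BMP genes share. The 250 bases before the RefSeq start of *Fgf21* lie at chr7:45615491-45615740 on the minus strand of GRCm38.p6. They are shown 5′ to 3′ with, in capitals, a match to the amino acid response element bound by ATF4 (TGATGNAA, read here on the opposite strand), an E-box (CACGTG) and a TATA box (TATAAA), the first bases of which are 139, 50 and 28 bases before the start.

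Fgf21: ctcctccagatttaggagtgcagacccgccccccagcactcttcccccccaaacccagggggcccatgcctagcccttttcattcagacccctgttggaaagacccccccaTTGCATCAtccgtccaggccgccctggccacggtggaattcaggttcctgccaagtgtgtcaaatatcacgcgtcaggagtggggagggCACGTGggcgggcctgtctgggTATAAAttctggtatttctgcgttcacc

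Of the 32851 promoters of this length, 3.45% held TGATGNAA on either strand, 6.02% held CACGTG and 12.4% held TATAAA. Among the other genes, whose promoters were given for *Klb*, *Nrg4*, *Bmp8b*, *Gdf15*, *Bmp4* and *Acvr1c*, none held TGATGNAA or TATAAA. The 250 bases before the start of *Bmp4*, at chr14:46390670-46390919 on the minus strand, are shown with an E-box and a GC-box (GGGCGG, in 32.7% of promoters) in capitals. Neither is particular to *Bmp4*. GC-boxes on either strand also lie, unmarked, in the window of *Fgf21* and in those of *Bmp8b* and *Acvr1c*. CACGTG also lies in a window of *Gdf15*. These matches are letters found in a window and not measured binding.

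Bmp4: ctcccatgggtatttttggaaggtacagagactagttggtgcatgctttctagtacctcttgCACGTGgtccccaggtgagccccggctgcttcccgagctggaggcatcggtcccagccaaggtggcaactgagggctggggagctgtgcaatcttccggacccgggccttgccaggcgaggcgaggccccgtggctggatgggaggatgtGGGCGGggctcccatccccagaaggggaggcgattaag

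*Bmp8b* and its neighbour *Bmp8a* share 268 runs of 31 bases, which is 11.2% of those of *Bmp8a*. The longest stretch identical in both coding sequences has 182 bases and is shown because fragments within it cannot be told apart.

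Bmp8a and Bmp8b: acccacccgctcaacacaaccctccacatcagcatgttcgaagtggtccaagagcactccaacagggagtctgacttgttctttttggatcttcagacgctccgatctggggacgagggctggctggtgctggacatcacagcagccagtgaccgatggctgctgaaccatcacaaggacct

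All 9 are protein-coding genes of GRCm38. *Fgf21* (ENSMUSG00000030827) lies at chr7:45613886-45615490, *Klb* (ENSMUSG00000029195) at chr5:65348314-65384007 and *Fgfr1* (ENSMUSG00000031565) at chr8:25513654-25575718. *Nrg4* (ENSMUSG00000032311) lies at chr9:55220222-55326844 and *Gdf15* (ENSMUSG00000038508) at chr8:70629393-70632456. *Bmp8b* (ENSMUSG00000002384) lies at chr4:123105165-123132099, *Bmp4* (ENSMUSG00000021835) at chr14:46383520-46390669, *Bmp7* (ENSMUSG00000008999) at chr2:172868012-172940321 and *Acvr1c* (ENSMUSG00000026834) at chr2:58267453-58357895. FPKM values count fragments over exons, and the alignment did not use strand. Reads from genes that overlap on the opposite strand could therefore not be told apart, which concerns *Fgfr1* (*Gm16159*), *Nrg4* (*Fbxo22*, *Gm15625*), *Bmp8b* (*Gm17244*, *Ppie*), *Bmp4* (*Gm15217*) and *Acvr1c* (*Gm13544*). The number of reads was not given. FPKM summed to 393682 to 711437 per library over the 7 tissues, 364710 to 384104 in iWAT and 676362 to 720852 in BAT. The 10 most abundant genes held 11.9% to 13.04% of that sum in iWAT and 48.4% to 51.3% in BAT.

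In the 7 tissues, *Fgfr1*, *Nrg4* and *Acvr1c* had their highest level in white adipose tissue and *Klb* was high in liver and fat. *Bmp8b* and *Bmp7* had their highest FPKM outside fat, whereas small intestine and white adipose tissue were close for *Bmp4*. The fat libraries together held 94.3% of *Nrg4*, 90.1% of *Acvr1c* and 68.9% of *Fgfr1*, as a share of the FPKM summed over the tissues. The ligand *Fgf21* was at 0.295 FPKM or lower in every tissue. With 1 library per tissue these differences have no replicate check and no test, and none of the orders below can be set against a spread.

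*Fgf21* had an FPKM of 0.295 in TA muscle, 0.0586 in liver and 0.0569 in brown adipose tissue, and is listed at 0 in the other 4 tissues. *Klb*, the co-receptor that gives FGF21 its target tissues, had 6.43 FPKM in liver, 6.11 in white adipose tissue, 3.995 in brown adipose tissue and 0.135 in small intestine, and is listed at 0 in heart, TA muscle and brain. The order of liver and white adipose tissue depended on the scaling, with liver 1.05 times white adipose tissue in FPKM (0.1 added to each) and 0.794 times after rescaling to TPM. *Fgfr1*, the receptor that FGF21 uses in fat, had 89.9 FPKM in white adipose tissue, 18.7 in brain, 16.1 in brown adipose tissue, 10.99 in TA muscle, 6.93 in heart, 6.27 in small intestine and 4.94 in liver. Only the fat libraries thus held both *Klb* and more than 10 FPKM of *Fgfr1*, while liver, with the highest *Klb* in FPKM, had the lowest *Fgfr1*. The related receptors peaked elsewhere, *Fgfr2* in small intestine (17.8 FPKM) and brain (16.0), *Fgfr3* in brain (18.8) and *Fgfr4* in liver (9.90). *Kl*, the co-receptor of another endocrine FGF, had 3.39 FPKM in brain, and *Fgf15*, the intestinal hormone that also needs *Klb*, had 1.79 in small intestine and is listed at 0 in the other 6 tissues. *Fgf1*, which binds FGF receptors without a Klotho protein, had 64.0 FPKM in heart, 45.1 in white adipose tissue but 6.18 in the brown depot.

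*Nrg4* had 117 FPKM in white adipose tissue, 91.4 in brown adipose tissue, 9.96 in liver and 1.38 in small intestine, and 0.363 to 0.437 in heart, brain and TA muscle. White adipose tissue was 1.27 times brown adipose tissue in FPKM and 2.16 times after rescaling to TPM. The receptors of neuregulins were distributed otherwise. *Erbb3* had 24.8 FPKM in small intestine and 10.4 in liver, and *Erbb4*, which binds NRG4, had 3.98 in brain and is listed at 0 in white adipose tissue, TA muscle and small intestine.

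*Bmp8b* had 1.32 FPKM in small intestine and 0.0391 in brain, and is listed at 0 in the other 5 tissues, brown adipose tissue included. *Bmp8a*, the gene that shares sequence with it, had 1.43 FPKM in small intestine and is listed at 0 elsewhere. Small intestine was therefore the 1 tissue with an FPKM of at least 1 for both. *Bmp4* had 7.96 FPKM in small intestine and 7.06 in white adipose tissue against 3.03 in TA muscle, 2.49 in heart, 1.19 in brown adipose tissue, 1.18 in brain and 0.792 in liver. Its leading tissues also changed places with the scaling, since small intestine was 1.12 times white adipose tissue in FPKM and 0.941 times after rescaling to TPM. *Bmp7* had 6.04 FPKM in brain, 4.14 in small intestine, 1.33 in liver, 0.966 in white fat and 0.0488 in brown adipose tissue, its lowest value. Of the related ligands, *Bmp6* had more FPKM in fat than in the other tissues (12.2 in the white depot and 10.6 in the brown), and *Bmp2* and *Bmp5* had their highest levels in small intestine (6.63 and 8.81).

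*Acvr1c*, which encodes the type I receptor ALK7 for activins and some GDFs, had 14.9 FPKM in white adipose tissue, 5.89 in brown adipose tissue, 1.99 in brain and at most 0.256 in the other 4 tissues. Among its ligands, *Inhbb* also had its highest level in white adipose tissue (15.4 FPKM, 1.41 in brown adipose tissue), whereas *Gdf3* had 0.0874 FPKM in small intestine and is listed at 0 in the other 6 tissues, and *Inhbe* had 14.3 FPKM in liver and at most 0.0163 elsewhere. The type I and type II receptors that the BMP ligands use were broader, with *Bmpr1a* from 6.47 FPKM in liver to 27.9 in white adipose tissue, *Acvr1* from 4.99 to 21.4, *Bmpr2* from 2.51 to 9.83 and *Acvr2a* from 2.57 to 4.82. *Acvr2b* reached 1.42 FPKM in white adipose tissue and *Bmpr1b* 2.68 in brain. *Gdf15* had 0.940 FPKM in liver, 0.557 in brown adipose tissue and 0.197 in the white depot, and is listed at 0 in the other 4 tissues. Its receptor *Gfral* is listed at 0 in all 7 libraries, and *Ret*, the partner of GFRAL, had 3.82 FPKM in brain and 2.68 in white adipose tissue.

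**Figure D1:**
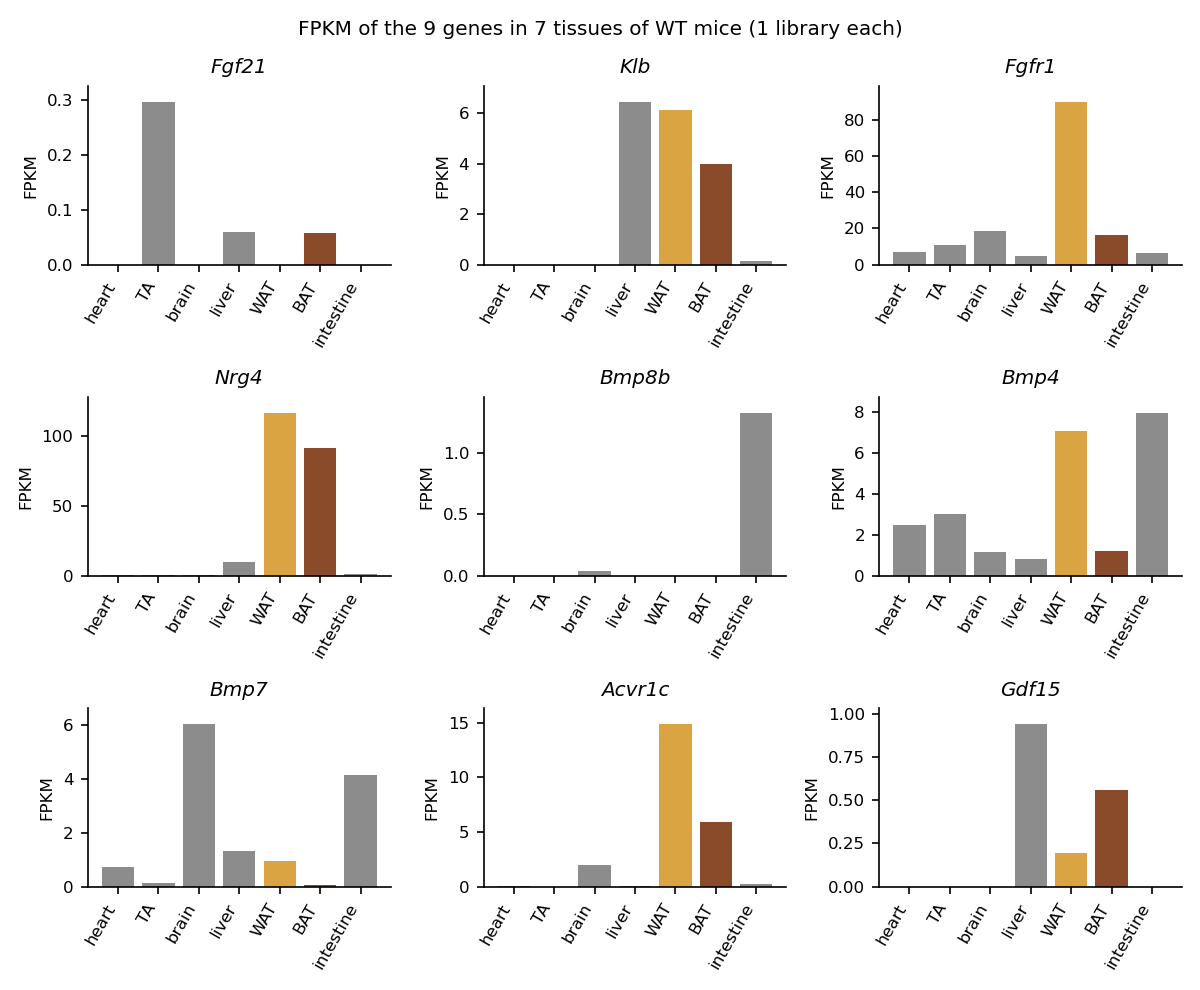
FPKM of each gene in 7 tissues of WT mice. Each bar is 1 library, with white adipose tissue (WAT) in yellow, brown adipose tissue (BAT) in brown and the other tissues in grey, and each panel has its own linear axis from 0. *Nrg4*, *Acvr1c* and *Fgfr1* stand highest in WAT (117, 14.9 and 89.9 FPKM), *Klb* in liver and fat, and *Bmp8b* in small intestine.

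The genes whose pattern was most like that of each gene were taken as those with the highest Pearson r of log2(FPKM + 1) over the 7 tissues, among 13444 genes with an FPKM of at least 5 in some tissue. These are descriptions over 7 points that share 1 library each. For *Klb* they were *Gm38079* (r = 0.995) and *Hp* (r = 0.992), for *Fgfr1* *Herpud2* (r = 0.996) and *Bmper* (r = 0.990), and for *Nrg4* *Ppp2r5a* (r = 0.993) and *Ctcflos* (r = 0.985). For *Acvr1c* they were *Sycp3* (r = 0.993) and *Pnpla3* (r = 0.989), for *Bmp4* *AI506816* (r = 0.987) and *Cebpd* (r = 0.976), and for *Bmp7* *Map7* (r = 0.994) and *Grb2* (r = 0.988). *Bmp8b* was matched by *Arg2* and *Areg*, but 633 genes had an r of at least 0.95 with it, against 7 to 40 for each of the others, so that likeness to a gene seen in 1 tissue singles out little. *Fgf21* and *Gdf15* did not reach 1 FPKM and were given no such genes.

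In cold fat of WT mice, *Nrg4* was the most abundant of the 9 genes in both depots. In iWAT, *Nrg4* had 91.8 ± 3.30 FPKM (SD, n = 3) and *Fgfr1* 47.1 ± 5.23, and their libraries did not overlap with each other or with those of the next genes. *Acvr1c* (10.1 ± 1.10), *Bmp4* (7.88 ± 4.58) and *Klb* (5.37 ± 1.26) followed, and *Bmp4* overlapped with both of its neighbours in that order. *Bmp7* had 2.74 ± 0.404 FPKM and *Fgf21* 0.404 ± 0.578 (SD, n = 3 each). In BAT, *Nrg4* had 90.5 ± 8.70 FPKM (SD, n = 3) and *Fgfr1* 8.45 ± 0.752, *Acvr1c* 5.65 ± 0.876, *Klb* 4.60 ± 0.697 and *Bmp8b* 3.07 ± 1.45. Neighbours from *Acvr1c* to *Klb*, from *Klb* to *Bmp8b* and from *Bmp8b* to *Bmp4* overlapped. *Bmp4* (1.37 ± 0.358), *Fgf21* (0.685 ± 0.204), *Gdf15* (0.0941 ± 0.127) and *Bmp7* (0.0703 ± 0.0524) were the lowest. Levels were not tested between the iWAT and BAT tables, which were made separately.

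The library of brown adipose tissue among the 7 tissues was prepared from mice not assigned to cold and stands in another table, so its values are set beside those of cold BAT without a test. *Bmp8b* is listed at 0 there and had 1.67 to 5.44 FPKM in all 6 cold BAT libraries, while *Bmp8a* is listed at 0 in each of these 7 libraries. *Fgf21* had 0.0569 FPKM there and 0.0535 to 0.978 in cold BAT, a range that reaches down to the single value. *Gdf15* went the other way, with 0.557 FPKM there and 0 to 0.238 in cold BAT. *Nrg4* (91.4 FPKM, against 85.3 to 101) and *Bmp4* (1.19, against 0.372 to 1.71) fell within the cold range. *Ucp1*, the uncoupling protein of brown fat, had 467 FPKM there and 2778 to 3792 in cold BAT. Temperature, table and library could not be told apart in these values.

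The cold libraries compare these genes in cold fat between MCK-Musclin and WT mice. Groups were compared with limma on log2(FPKM + 1), and fold changes are MCK-Musclin over WT on that scale, which understates the change of genes with a low FPKM. The cutoff of the study asks for an unadjusted p under 0.05 and for a log2 fold change of more than 0.5 in iWAT and more than 0.3 in BAT, in either direction. An exact permutation test of 3 against 3 libraries cannot give a two-sided p below 0.1.

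Some libraries need to be described first. *Ostn*, the gene of Musclin, had 30.3 to 37.9 FPKM in BAT of MCK-Musclin mice and is listed at 0 in BAT of WT mice. TA muscle of WT mice had 7.43 FPKM of *Ostn*, in a separate table. The source of this transcript in fat was not tested, so the genotype comparison cannot isolate Musclin that arrives from muscle. In iWAT it had 0, 0 and 0.225 FPKM in WT libraries 1 to 3 and 0, 5.17 and 4.21 FPKM in MCK-Musclin libraries 1 to 3, so the transcript could not check the label of MCK-Musclin library 1 and the calls in iWAT are also given without it. The iWAT groups differed in marker genes of several cell types. Summed FPKM of 7 B cell markers was 141 to 271 in WT and 304 to 400 in MCK-Musclin libraries, with all 7 genes above the WT range, and that of 6 T cell markers was 81.8 to 107 and 148 to 153, with all 6 above. Of 5 lymph node stroma markers 4 lay above the WT range (summed FPKM 150 to 327 and 347 to 564). The 10 general adipocyte markers summed to 17733 to 18862 FPKM in WT and 15910 to 17574 in MCK-Musclin libraries, and the 10 brown and beige fat markers to 581 to 1080 and 127 to 652. Fast skeletal muscle markers (10 genes) ranged from 9.16 to 2839 FPKM in WT iWAT and from 8.10 to 117 in MCK-Musclin iWAT. MCK-Musclin iWAT libraries 1 to 3 had 8.10, 106 and 117 FPKM of these muscle markers, and 652, 233 and 127 FPKM of the brown and beige fat markers. In BAT the fast skeletal muscle markers summed to 372 to 572 FPKM in WT and 612 to 1350 in MCK-Musclin libraries, the general adipocyte markers to 8747 to 9562 and 8145 to 9186, and the brown and beige fat markers to 8926 to 10332 and 8593 to 9948. In whole fat, fewer cells of a type and less RNA per cell cannot be told apart.

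In cold iWAT, *Bmp4* passed the cutoff of the study downwards in MCK-Musclin mice and *Nrg4* was lower in every MCK-Musclin library, but neither had an adjusted p under 0.05. *Acvr1c*, *Klb*, *Bmp7* and *Fgfr1* did not pass the test. Of the 7 genes listed, 6 passed the filter on low values and *Fgf21* did not. *Bmp4* alone, 1 of the 6, passed the cutoff downwards, against 0.902% of the 12197 genes tested, and no gene passed it upwards, against 5.04%. None of the 6, and none of the 12197 genes (0.00%), reached an adjusted p under 0.05 in limma (Benjamini-Hochberg), while 2 of the 6 had an unadjusted p under 0.05, against 16.5%. The fold changes of all 6 were below 0, against 38.7% of all genes, and their median was -0.30 against 0.06. This direction was not particular to them. All 10 general adipocyte markers (median -0.15) and all 10 brown and beige fat markers (median -1.06) were below 0 as well. When the libraries were centred on their general adipocyte markers, the median of all genes was 0.26 and *Fgfr1* took the other sign (0.13).

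*Bmp4* had 2.86, 8.95 and 11.8 FPKM in WT libraries 1 to 3 and 2.82, 3.32 and 1.98 FPKM in MCK-Musclin libraries 1 to 3. WT library 1 lay within the MCK-Musclin range and the other WT libraries lay above it, so the groups overlapped. The mean of MCK-Musclin mice was 0.344 times that of WT mice, and the log2 fold change was -1.11 (SE 0.42, 95% interval -2.09 to -0.13, limma p = 0.0318, adjusted p = 0.258, exact two-sided permutation p = 0.2). The result rested on single libraries. It was -1.62 without WT library 1, and it was no longer past the cutoff without WT library 2 (-0.94) or 3 (-0.76) or MCK-Musclin library 1 (-1.14) or 3 (-0.96), or with the libraries centred on their general adipocyte markers (-0.91). In WT libraries 1 to 3, in the same order, fast skeletal muscle markers summed to 9.16, 555 and 2839 FPKM and brown and beige fat markers to 581, 914 and 1080 FPKM. The B cell markers went the other way, with 271, 166 and 141 FPKM. The part of these markers in the difference in *Bmp4* was not tested.

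*Nrg4* had 88.9, 91.1 and 95.4 FPKM in WT libraries 1 to 3 and 86.7, 73.2 and 61.7 FPKM in MCK-Musclin libraries 1 to 3. It was the 1 gene of the 6 whose groups did not overlap, with all MCK-Musclin libraries below all WT libraries as for 5.44% of the genes tested (17.9% had them all above), although the gap between the nearest libraries was small. The log2 fold change was -0.32 (SE 0.13, 95% interval -0.63 to -0.01, limma p = 0.0433, adjusted p = 0.286, exact two-sided permutation p = 0.1), within the cutoff of 0.5. It was -0.44 without MCK-Musclin library 1, -0.20 without MCK-Musclin library 3 and -0.13 with the libraries centred on their general adipocyte markers. The unadjusted limma p was no longer under 0.05 without any 1 of the other 5 libraries, with that centring, with a variance prior without a trend or with the replicate block. The summed FPKM of the 10 general adipocyte markers did not overlap between the groups either, with 3 of the 10 genes below the WT range in every MCK-Musclin library, and their part in the difference in *Nrg4* was not tested.

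*Acvr1c* had 9.14, 11.3 and 9.96 FPKM in WT iWAT and 7.91, 6.95 and 9.44 FPKM in MCK-Musclin iWAT, with 1 MCK-Musclin library inside the WT range. Its log2 fold change was -0.30 (SE 0.14, 95% interval -0.61 to 0.02, limma adjusted p = 0.328) and -0.29 without MCK-Musclin library 1. *Bmp7* had 2.28 to 2.99 FPKM in WT and 1.84 to 2.51 in MCK-Musclin libraries, with a log2 fold change of -0.25 (SE 0.14, limma adjusted p = 0.421) and -0.24 without MCK-Musclin library 1. For *Klb* the range was 4.58 to 6.82 FPKM in WT and 2.18 to 6.04 in MCK-Musclin libraries, and the log2 fold change of -0.30 (SE 0.30, limma adjusted p = 0.647) became 0.04 when MCK-Musclin library 2 was left out and -0.41 when library 1 was. *Fgfr1* was the least different of the 6, with 41.4 to 51.6 FPKM in WT and 41.1 to 47.6 in MCK-Musclin libraries and a log2 fold change of -0.07 (SE 0.11, 95% interval -0.33 to 0.20, limma adjusted p = 0.804), and -0.11 without MCK-Musclin library 1. *Fgf21* was spread over the same range in both genotypes, with 0, 0.146 and 1.07 FPKM in WT libraries 1 to 3 and 0.0743, 1.00 and 0.0517 FPKM in MCK-Musclin libraries 1 to 3 (exact two-sided permutation p = 0.9). In each genotype 1 library reached 1 FPKM of the hormone, and the others had at most 0.146.

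**Figure D2:**
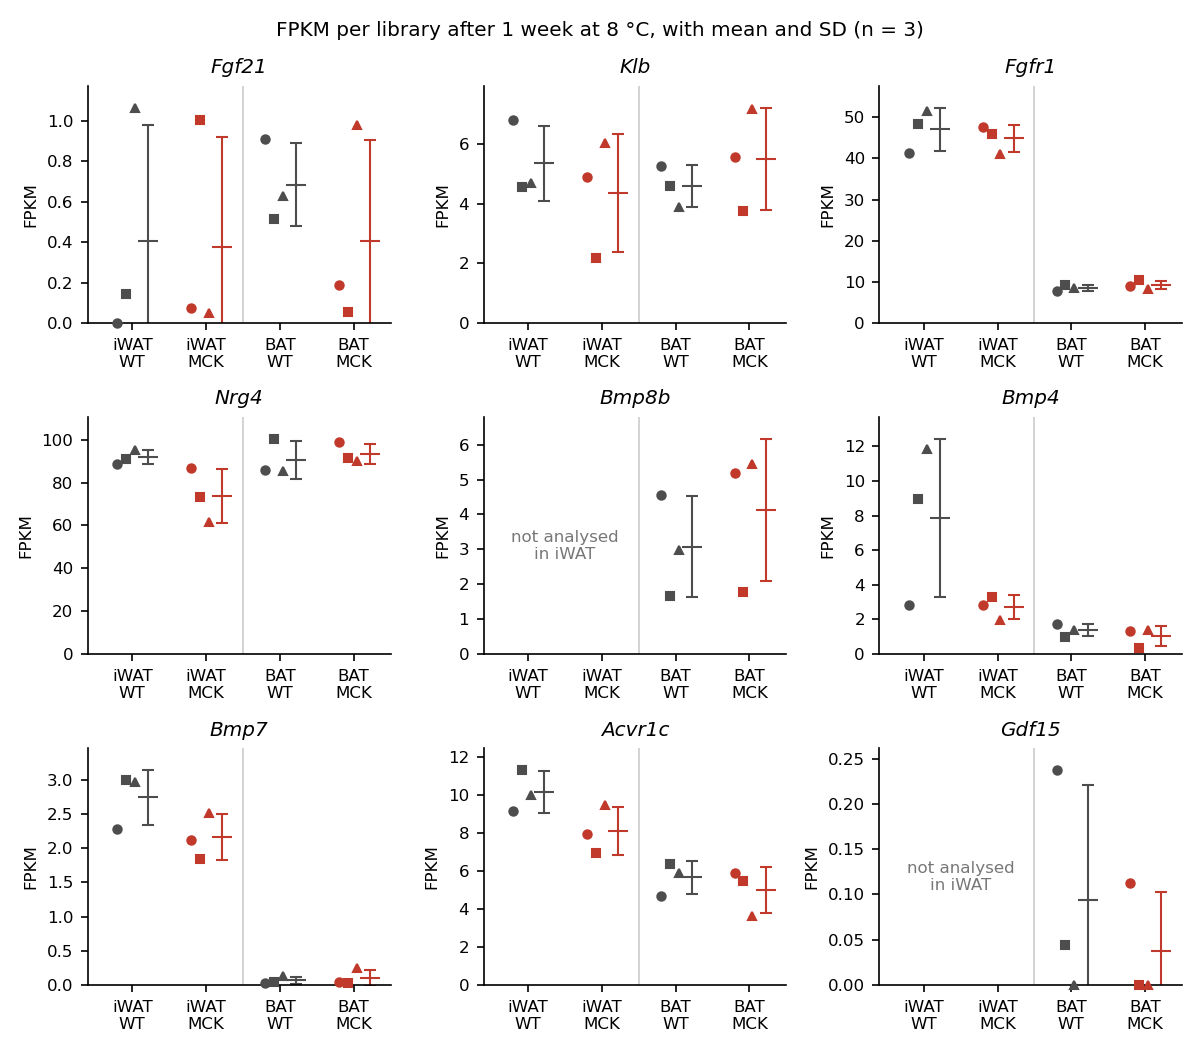
FPKM of each gene per library in iWAT and BAT after 1 week at 8 °C, WT in grey and MCK-Musclin (MCK) in red. Circles, squares and triangles are libraries 1, 2 and 3, dashes with bars are the mean ± SD (n = 3), and each panel has its own linear axis from 0, at which error bars are clipped. *Nrg4* in iWAT is the panel whose groups do not overlap, *Bmp4* in iWAT has 1 low WT library, and *Bmp8b* and *Gdf15* have BAT values only.

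In cold BAT none of the genes differed between the genotypes at the cutoff of the study. Of the 9 genes, 6 passed the filter, and *Fgf21*, *Gdf15* and *Bmp7* did not. The number past the cutoff was 0 of 6 in either direction, against 2.15% of the 10893 genes tested downwards and 1.85% upwards, and 0 of 6 had an unadjusted limma p under 0.05, against 4.89%. The transgene transcript *Ostn* was the 1 gene of them (0.00918%) with an adjusted p under 0.05. All 6 genes overlapped between the groups, whereas for 5.63% of all genes every MCK-Musclin library lay below the WT libraries and for 4.38% above. Their median log2 fold change was 0.08 against -0.0084 for all genes.

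*Bmp8b*, the BMP induced in activated brown fat, had 4.56, 1.67 and 2.97 FPKM in WT libraries 1 to 3 and 5.18, 1.79 and 5.44 FPKM in MCK-Musclin libraries 1 to 3. Both groups held a low library and a high library, and the log2 fold change was 0.30 (SE 0.38, 95% interval -0.58 to 1.19, limma adjusted p = 0.972). This interval includes a change of more than 2-fold upwards. *Klb* had 5.29, 4.60 and 3.90 FPKM in WT and 5.58, 3.75 and 7.20 FPKM in MCK-Musclin libraries, with a log2 fold change of 0.19 (SE 0.21, limma adjusted p = 0.968). *Fgf21* had 0.911, 0.515 and 0.627 FPKM in WT libraries 1 to 3 and 0.186, 0.0535 and 0.978 FPKM in MCK-Musclin libraries 1 to 3. The MCK-Musclin libraries held both the lowest and the highest value (exact two-sided permutation p = 0.4).

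*Nrg4* was the most closely measured gene in BAT, with 85.3 to 101 FPKM in WT and 90.0 to 98.8 in MCK-Musclin libraries and a log2 fold change of 0.05 (SE 0.10, 95% interval -0.17 to 0.27, limma adjusted p = 0.986). *Fgfr1* had 7.68 to 9.18 FPKM in WT and 8.30 to 10.4 in MCK-Musclin libraries (log2 fold change 0.12, SE 0.12), and *Acvr1c* 4.68 to 6.38 and 3.60 to 5.91 FPKM (-0.16, SE 0.18). *Bmp4* had 1.00 to 1.71 FPKM in WT and 0.372 to 1.39 in MCK-Musclin libraries, and its log2 fold change of -0.25 (SE 0.24) became 0.01 without MCK-Musclin library 2. *Gdf15* had 0.238, 0.0444 and 0 FPKM in WT and 0.113, 0 and 0 FPKM in MCK-Musclin libraries, and *Bmp7* 0.0347 to 0.130 and 0.0235 to 0.242 FPKM. Both genes were at or near 0 in either genotype, with overlapping groups.

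**Figure D3:**
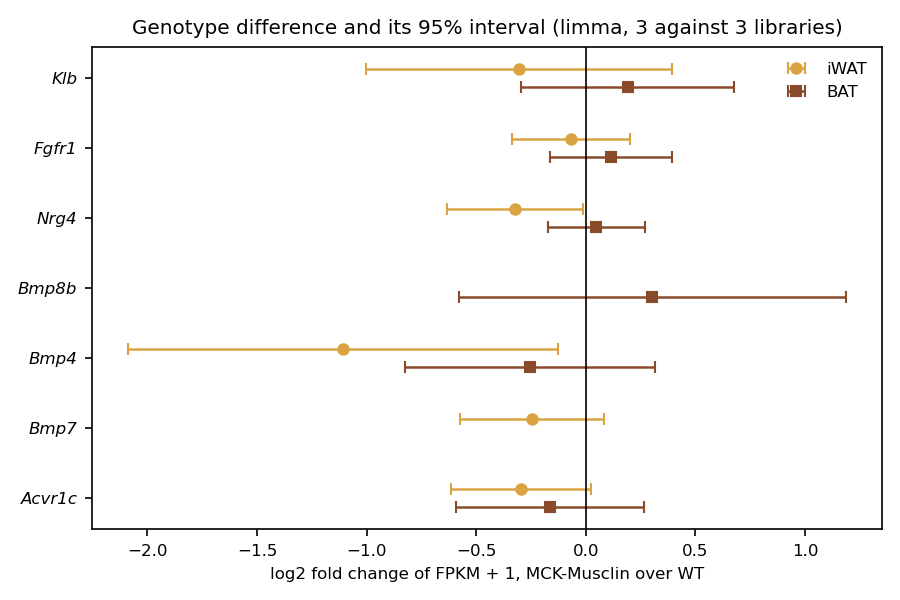
log2 fold change of FPKM + 1 (MCK-Musclin over WT) of the genes that passed the filter on low values, with the 95% interval from limma, 3 against 3 libraries. Yellow circles are iWAT and brown squares are BAT. The intervals of *Bmp4* (-2.09 to -0.13) and *Nrg4* (-0.63 to -0.01) in iWAT lie below 0, and all those of BAT include 0.

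Whether the genotype difference was itself different in iWAT and BAT was tested over the 12 cold libraries with an interaction term. The fit treated these libraries as independent. Whether iWAT and BAT libraries came from the same animals is not stated. For *Nrg4* the difference in iWAT was lower than that in BAT by a log2 value of -0.37 (SE 0.17, limma adjusted p = 0.420), with an unadjusted p under 0.05, where 11.8% of the 11645 genes tested had an unadjusted p under 0.05 and 1 gene (0.00859%) an adjusted one. For *Bmp4* it was -0.85 (SE 0.53, limma adjusted p = 0.560), for *Klb* -0.50 (SE 0.40), for *Bmp7* -0.28 (SE 0.18), for *Fgfr1* -0.18 (SE 0.16) and for *Acvr1c* -0.13 (SE 0.24). All 6 intervals except that of *Nrg4* included 0. *Bmp7* entered this test by its mean over the 12 libraries, although it had not passed the filter in BAT. With 0.0235 to 0.242 FPKM in BAT, its value mostly restates its log2 fold change in iWAT (-0.25). It cannot show a difference between the depots.

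The other genes of these pathways are given by lists. Groups said not to overlap are to be read beside the shares over all genes tested. In iWAT every MCK-Musclin library lay above the WT libraries for 17.9% of genes and below for 5.44%. In BAT these shares were 4.38% and 5.63%. Of the FGF ligands, receptors and co-receptors, 11 of 22 were tested in iWAT and 6 in BAT, and 0 passed the cutoff in either. Their median log2 fold change was -0.07 in iWAT and -0.0044 in BAT, against 0.06 and -0.0084 for all genes. In iWAT, *Fgf1* had 4.49 to 7.08 FPKM in WT and 4.08 to 9.93 in MCK-Musclin libraries, and *Fgfr2* 2.64 to 4.12 and 2.15 to 3.12 FPKM. *Fgfr3* did not exceed 1.27 FPKM in iWAT or 1.66 in BAT, and *Fgfr4* did not exceed 0.0601 in BAT. *Kl* did not exceed 0.0277 FPKM in BAT, and *Fgf15* is listed at 0 there. *Fgfr1* thus had more FPKM than *Fgfr2* and *Fgfr3* in iWAT and more than *Fgfr3* and *Fgfr4* in BAT.

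Of 20 genes of FGF receptor signalling and feedback, 17 were tested in iWAT, with a median of -0.08, and 15 in BAT, with a median of 0.06. *Grb2*, which encodes an adaptor that links many receptors to Ras, was the 1 gene past the cutoff, higher in MCK-Musclin iWAT with 24.1, 39.5 and 40.5 FPKM against 21.7, 18.6 and 23.2 in WT libraries. These groups did not overlap (log2 fold change 0.66, SE 0.20, limma adjusted p = 0.196), and in BAT *Grb2* had a log2 fold change of 0.06 (SE 0.14). Of the 17 genes tested in iWAT, 1 lay above the WT range in every MCK-Musclin library and 3 below it, against 5.44% of all genes below. The 3 were *Sos1* (5.99 to 6.79 FPKM in WT, 5.18 to 5.83 in MCK-Musclin libraries), *Shc1* (10.6 to 14.5, 9.85 to 10.3) and *Ptpn11* (40.6 to 43.4, 34.4 to 38.5). None of the 3 passed the cutoff. The feedback inhibitors that FGF signalling is known to induce did not pass the cutoff. *Dusp6*, a phosphatase of ERK, had 4.49 to 5.02 FPKM in WT and 1.91 to 4.91 in MCK-Musclin iWAT (log2 fold change -0.49, SE 0.24), *Spry4* had -0.33 (SE 0.20) and *Spry2* -0.12 (SE 0.16). In BAT these 3 genes had log2 fold changes of 0.08 (SE 0.19), 0.15 (SE 0.22) and -0.17 (SE 0.18).

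Among 8 neuregulins and ErbB receptors, 3 were tested in iWAT (median log2 fold change 0.15) and *Nrg4* alone in BAT, and 0 passed the cutoff. *Erbb2*, the co-receptor without a ligand of its own, lay above the WT range in every MCK-Musclin iWAT library, as did 17.9% of all genes tested. It had 1.21 to 1.41 FPKM in WT and 1.68 to 1.71 in MCK-Musclin libraries (log2 fold change 0.25, SE 0.11, limma adjusted p = 0.328). *Erbb3* had 0.440 to 0.825 FPKM over the iWAT libraries and 0.268 to 0.479 over those of BAT. *Erbb4* had 0.165 to 0.332 and 0.140 to 0.378 FPKM. The receptors of NRG4 were thus far below *Nrg4* itself in both depots.

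Of 14 BMP ligands, 5 were tested in iWAT and 3 in BAT, with a median of -0.32 and -0.17, and *Bmp4* in iWAT was the 1 ligand past the cutoff. *Bmp6* had 5.15 to 7.88 FPKM in WT and 4.21 to 5.64 in MCK-Musclin iWAT (log2 fold change -0.32, SE 0.16, limma adjusted p = 0.377) and -0.17 (SE 0.15) in BAT. *Bmp2* had a log2 fold change of 0.14 (SE 0.16) in iWAT and did not exceed 0.360 FPKM in BAT, and *Bmp5* did not exceed 0.379 FPKM in iWAT or 0.533 in BAT. Of 16 activin and other GDF ligands, 6 were tested in iWAT (median 0.13) and 2 in BAT (median 0.02), with 0 past the cutoff. *Inhbb* had 8.54 to 15.6 FPKM over the iWAT libraries (log2 fold change 0.10, SE 0.21) and at most 0.448 in BAT. *Gdf3* reached at most 0.0941 FPKM in BAT, and *Inhbe* is listed at 0 there, as is *Gfral*. *Ret* had 0.45 to 1.15 FPKM in iWAT and 0.0390 to 0.0914 in BAT.

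Of 14 receptors for BMP, activin and TGF-beta, 11 were tested in iWAT and 10 in BAT, with a median of -0.09 and -0.06, and 0 passed the cutoff. *Bmpr2*, a type II receptor for BMPs, had 7.41, 7.59 and 7.40 FPKM in WT iWAT and 5.92, 4.69 and 6.28 FPKM in MCK-Musclin iWAT. These groups did not overlap, as for 5.44% of all genes tested in this direction. The log2 fold change of -0.36 (SE 0.12, limma adjusted p = 0.218) was within the cutoff of 0.5. *Bmpr1a*, a type I receptor for BMP4, also separated the groups, with 15.1 to 18.1 FPKM in WT and 13.7 to 14.6 in MCK-Musclin iWAT (log2 fold change -0.19, SE 0.10, limma adjusted p = 0.384). In BAT the values were -0.04 (SE 0.12) for *Bmpr2* and 0.09 (SE 0.11) for *Bmpr1a*. The receptors *Acvr1* (0.07, SE 0.10) and *Acvr2a* (-0.10, SE 0.13) overlapped in iWAT, and *Acvr1* (0.29, SE 0.18) overlapped in BAT. *Acvr2a* lay below the WT range in MCK-Musclin BAT by a log2 fold change of -0.08 (SE 0.11). *Acvr2b* did not exceed 0.744 FPKM in iWAT or 1.06 in BAT, and *Bmpr1b* did not exceed 0.0330 in BAT.

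Of 17 SMADs and BMP target genes, 14 were tested in iWAT and 12 in BAT, with medians of 0.12 and 0.00062 and 0 past the cutoff. *Id1*, the target gene most used as a readout of BMP signalling, had 15.1 to 18.2 FPKM in WT and 11.6 to 17.2 in MCK-Musclin iWAT, with a log2 fold change of -0.10 (SE 0.16). In BAT its log2 fold change was 0.17 (SE 0.12). Of the 14 genes tested in iWAT, 3 lay above the WT range in every MCK-Musclin library (*Id2*, *Id3* and *Smad1*) and 2 below it (*Hey1* and *Atoh8*). Over all genes tested in iWAT the shares were 17.9% and 5.44%. Of 19 extracellular antagonists of BMP and activin, 15 were tested in iWAT and 10 in BAT, with a median of -0.07 in each. *Grem1*, a secreted antagonist that binds BMP4, was higher in MCK-Musclin iWAT, with 1.47, 1.62 and 1.42 FPKM in the WT mice and 2.17, 2.09 and 3.73 in the MCK-Musclin mice. The groups did not overlap (log2 fold change 0.52, SE 0.18, limma adjusted p = 0.228), as for 17.9% of all genes tested in this direction. *Grem1* is listed at 0 in all 6 BAT libraries.

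The ATF4 stress response, which is known to induce *Fgf21* and *Gdf15*, had 17 of 20 genes tested in iWAT (median log2 fold change -0.03) and 14 in BAT (median -0.09). *Chac1*, an ATF4 target that degrades glutathione, was lower in MCK-Musclin iWAT, with 1.28, 2.61 and 1.22 FPKM in the WT group and 0.755, 0.851 and 0.658 in the MCK-Musclin group (log2 fold change -0.59, SE 0.20, limma adjusted p = 0.227). In BAT *Ddit4*, an inhibitor of mTORC1, was the 1 gene past the cutoff, with 3.02, 3.84 and 4.04 FPKM in the WT group and 1.52, 1.60 and 3.01 in the MCK-Musclin group (log2 fold change -0.63, SE 0.20, limma adjusted p = 0.968). Neither pair of groups overlapped, as for 5.44% of all genes tested downwards in iWAT and 5.63% in BAT. *Atf4* itself had a log2 fold change of -0.03 (SE 0.36) in iWAT and -0.11 (SE 0.10) in BAT, and *Ddit3* -0.09 (SE 0.13) in each. Of 24 other factors secreted by brown fat, a list that includes *Nrg4*, *Bmp8b*, *Fgf21* and *Gdf15*, 17 were tested in iWAT (median -0.09) and 18 in BAT (median 0.00016). *Angptl4*, an inhibitor of lipoprotein lipase, passed the cutoff upwards in iWAT, with 14.5, 49.8 and 21.3 FPKM in the WT group and 49.0, 58.5 and 41.7 in the MCK-Musclin group. These groups overlapped through WT library 2 (log2 fold change 0.95, SE 0.40, limma adjusted p = 0.294). Its log2 fold change in BAT was -0.01 (SE 0.20).

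Without MCK-Musclin library 1 of iWAT, an alternative chosen after the data were seen, *Grb2* (log2 fold change 0.89, SE 0.13) and *Grem1* (0.61, SE 0.21) still passed the cutoff, whereas *Chac1* (-0.59, SE 0.25) and *Angptl4* (0.95, SE 0.48) did not. *Dusp6* then passed it downwards (-0.74, SE 0.19), and *Gdf11*, *Chrdl1* and *Atf5* passed it upwards. The median log2 fold change took the other sign for the FGF ligands, receptors and co-receptors (0.07), the extracellular antagonists (0.02) and the ATF4 stress response (0.07), with a median over all genes of 0.08. The values of *Bmpr2* (-0.39, SE 0.14), *Bmpr1a* (-0.17, SE 0.12), *Bmp6* (-0.23, SE 0.18), *Erbb2* (0.24, SE 0.14) and *Spry4* (-0.21, SE 0.21) kept their sign and did not pass the cutoff, and that of *Atf4* became 0.36 (SE 0.26).

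**Figure D4:**
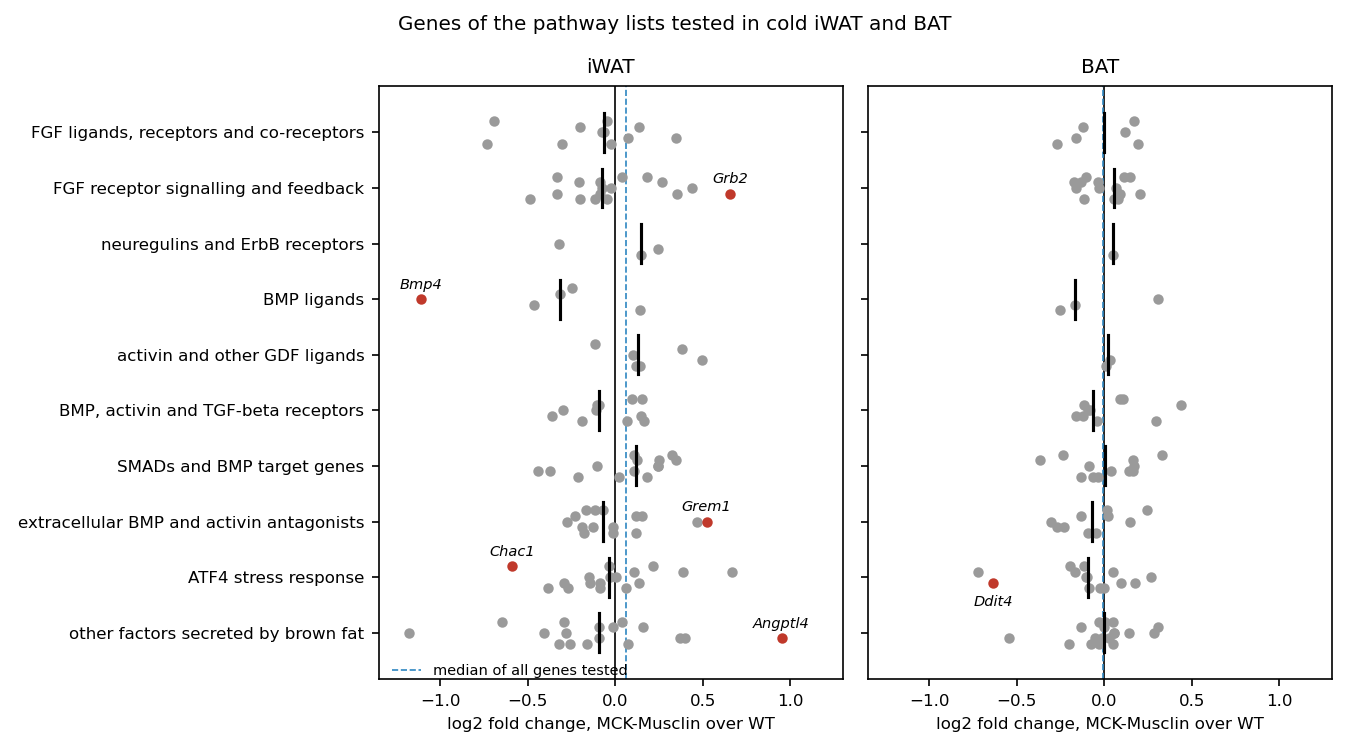
log2 fold change (MCK-Musclin over WT) of the tested genes of each pathway list in cold iWAT (left) and BAT (right). Each point is a gene, red and named where it passed the cutoff of the study, the black bar is the median of the list, and the dashed line is the median of all genes tested (0.06 in iWAT, -0.0084 in BAT). A gene on several lists is drawn in each, and 5 genes in iWAT and 1 in BAT are red.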

How the data were processed

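The deposited values are FPKM per gene and library. The authors used fastp and bowtie2 to filter reads and HISAT2 (2.1.0) to align them to mm10 (GRCm38) without using strand, and computed the FPKM with StringTie per the study's methods. The submitters' processing notes name Cuffdiff and not StringTie, so the tool behind the FPKM is unsettled. The filter that left 13756 genes in the iWAT table is not given in the sources used here. Columns of the authors' own comparison in the iWAT table (fold changes, p-values, group means) were not used. Counts were not analysed, so in place of the count test named in the study's methods, limma (version 3.58.1, R 4.3.3) was fitted to log2(FPKM + 1) of each table by lmFit and trended eBayes. A gene entered when its FPKM averaged 1 or more over the 6 libraries, and p-values were corrected over all such genes by Benjamini-Hochberg. Descriptions and exact permutation tests were computed in Python (3.11.15) with pandas (2.3.3), numpy (2.4.6) and scipy (1.17.1), and plots with matplotlib (3.10.9).

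Lines that repeat a gene, 287 in the BAT table and 287 in that of the 7 tissues, were dropped, and where a symbol had several gene IDs the lowest was used. The 9 genes, the pathway lists and the marker lists were chosen with earlier results of these data known. Genes named from the lists were those past the cutoff of the study, the direct partners and relatives of the 9 genes, and the genes most like each of them over the 7 tissues, with *Ucp1* and *Ostn* as checks of labels. Some others are named because their iWAT groups did not overlap. The study's methods give the libraries of a genotype as biologically independent animals, which the labels do not state per library. Read depth is unknown, and steps between low values gave relative depths of 0.880 to 1.16 within a table. Only ratios close to 1 were kept for this estimate, so a large difference in depth could not have been returned. Simulated data had normal noise, independent between libraries, and changed genes with a mean log2(FPKM + 1) above 2. Of 100 changed genes per size, the fit recovered 98 at a log2 change of 2 and 82 at 1 in iWAT (12197 genes). In BAT it recovered 95 and 79 (10893 genes). Differences in cell content and changes in genes of low FPKM were not simulated, so these counts do not give the power for the measured genes. Promoters are from RefSeq (GRCm38.p6) and positions from GENCODE. Alternatives were other pseudocounts, filters, scalings, cutoffs and variance settings, a replicate block and leaving out each library.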

Additional observations from a re-analysis of the deposited data

Results flagged for a closer look

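The genotype difference of *Nrg4* in iWAT minus that in BAT was -0.371384 on the log2 scale (SE 0.17, 95% interval -0.74 to -0.01), and it was picked out because a test of the difference itself gave an unadjusted p under 0.05 in limma. It did not hold after correction over 11645 genes (limma adjusted p = 0.420). All 3 MCK-Musclin libraries lay below the WT libraries in iWAT, whereas the groups overlapped in BAT. Without 1 library at a time the difference ranged from -0.49 to -0.25, and the unadjusted limma p was no longer under 0.05 in 10 of these 12 fits or with the replicate block.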

How the results depend on the processing

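In iWAT the number of genes past the cutoff of the study was 725, and it was 1683 with a log2 cutoff of 0.3, 1781 with the libraries centred on their general adipocyte markers, and 622 to 1055 with 1 library left out. The number with an adjusted p under 0.05 rose from 0 to 1843 with that centring and was 0 to 86 with 1 library left out (86 without WT library 1). Of the genes past the cutoff in iWAT, 84.8% were higher in MCK-Musclin mice, against 69.5% after median-ratio scaling and 98.5% after centring. In BAT the number past the cutoff was 436, and it was 171 with a log2 cutoff of 0.5, 216 when a mean FPKM of 5 was required and 410 to 575 with 1 library left out, while 1 to 4 genes had an adjusted p under 0.05. The share of higher genes was 46.3% in BAT and 75.6% after centring. For the difference between depots, 1 gene had an adjusted p under 0.05, 0 had one with a pseudocount of 0.1 or with the replicate block, and 0 to 87 with 1 library left out (87 without WT library 1 of iWAT).

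Of the 9 genes, *Klb* in iWAT changed sign without MCK-Musclin library 2, *Fgfr1* in iWAT with centring (0.13) and without WT library 3, *Bmp4* in BAT without MCK-Musclin library 2 and *Acvr1c* in BAT without MCK-Musclin library 3. With TPM the leading tissue changed for *Klb* (ratio 0.794) and *Bmp4* (0.941). The cause was not tested. With 1 library left out, the log2 fold change ranged in iWAT from -1.62 to -0.76 for *Bmp4*, from -0.44 to -0.20 for *Nrg4*, from -0.54 to 0.036 for *Klb* and from -0.16 to 0.00036 for *Fgfr1*, and in BAT from -0.39 to 0.0097 for *Bmp4* and from -0.28 to 0.017 for *Acvr1c*.

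The main fits did not pair libraries with the same number. Their deviations correlated by 0.0615 to 0.235 in iWAT, where 5 of 6 libraries correlated best with their own number, and by -0.0951 to 0.00937 in BAT, where 0 of 6 did. With the replicate block 774 genes passed the cutoff in iWAT and 460 in BAT, with 0 and 1 at an adjusted p under 0.05, and *Bmp4* in iWAT had an unadjusted limma p of 0.0304 and *Nrg4* one of 0.0624. Depth is not known in reads, which limits what can be said of *Fgf21*, *Gdf15* and *Bmp7* in BAT.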
